A study of Rattus norvegicus with 16 samples.

Results

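Oxidative phosphorylation subunits were followed in both kidneys of 8 rats on 16 oligonucleotide arrays, 1 array per kidney. Members were the probe sets with a single platform gene symbol that starts with Nduf, Sdh followed by a to d, Uqcr, Cox followed by a digit, or Atp5, and they numbered 105 of 8740 probe sets, or 58 of 4736 genes. A probe set is a group of oligonucleotides for 1 transcript or a few related ones. The symbols were matched without regard to case, which brought in COX1, COX2 and COX3, the subunits encoded by mitochondrial DNA. Complex I had 24 genes (40 probe sets), complex II 1 gene (1 probe set), complex III 3 genes (6 probe sets), complex IV 16 genes (31 probe sets) and complex V 9 genes (13 probe sets). Ndufa4, named for complex I but now placed in complex IV, was counted there. A further 5 genes with 14 probe sets carry a matching name but are no subunits: the assembly factors Ndufaf3 and Sdhaf2, the ATP synthase inhibitor Atp5if1, the paralog Ndufa4l2 and the pseudogene Cox6c-ps1.

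The right kidney was treated with ACTH (adrenocorticotropic hormone) in rats 1 and 5, with DEX in rats 3 and 7 and with saline in rats 2, 4, 6 and 8, and the left kidney of the same animal served as control. The labels do not expand DEX, and give no strain, sex, age, dose, route or duration, nor whether an agent reached the left kidney. The array titles name 4 saline rats, which were used here, where the design text gives 2 rats per treatment.

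Oxidative phosphorylation passes electrons from NADH (complex I) or succinate (complex II) through ubiquinone, complex III and cytochrome c to oxygen at complex IV. The proton gradient built on the way drives ATP synthesis by complex V. Kidney tubules, above all the proximal tubule and thick ascending limb, rely on it to power sodium transport. Most subunits are nuclear genes expressed in nearly all cells, while a few complex IV subunits have tissue isoforms, of which Cox8b and Cox6a2 are those of muscle and, for Cox8b in rodents, brown fat.

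Signals were deposited on a linear scale, and changes are log2 differences of signal + 16. The ACTH or DEX effect is the right minus left change in the hormone rats minus that in the saline rats, with the standard error (SE) of a limma fit over 5244 probe sets. A probe set was called at an adjusted p (Benjamini and Hochberg) under 0.05. The lowest 40% of probe sets by mean level were not tested. Of the members, 98 probe sets of 56 genes passed that filter. The 7 that did not were both dimmer sets of Ndufa4l2, 1 set each of Ndufb11, Ndufs4 and Cox6a2, and the sole sets of Cox5a and Cox6c-ps1, so those last genes have no test of their own. A brighter set shared by Cox5a and another symbol is no member but was tested. It gave 0.17 for ACTH and 0.23 for DEX and was not called. Each gene is given by its brightest probe set. Levels of different probe sets are not compared, since each binds with its own strength.

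The label kidney fits the marker genes: the summed signal of 12 proximal tubule markers was 25351 to 27037 in ACTH right, 30895 to 31061 in DEX right, 28000 to 32999 in saline right and 27201 to 30767 in left kidneys. Of those markers, Kap, an androgen-regulated protein of the proximal tubule, was called lower under ACTH (log2 change -0.78 ± 0.12 SE, limma adjusted p = 0.0180) and no other. Arrays of rats 1 to 4 and of rats 5 to 8 differed in many genes, and the labels name no batch. Each of these sets holds 1 ACTH, 1 DEX and 2 saline rats. With only 2 rats per hormone, p-values set each effect against a spread pooled over these few ACTH, DEX and saline rats. That spread is also drawn toward the one typical of probe sets of similar level. In whole kidney RNA, fewer cells of a type and less RNA per cell cannot be told apart.

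No oxidative phosphorylation gene was called for either hormone. Limma called 0 of 98 member probe sets for the ACTH effect, against 0.496% of all tested probe sets, and 0 for the DEX effect, against 0.0% of all. At an unadjusted p under 0.05 there were 4 member probe sets for ACTH (4.08%, against 9.44% of all) and 0 for DEX (against 2.94% of all). Those 4 were the pairs for Cox8b and Ndufv3. The difference of the effects, ACTH minus DEX, called 0 members, against 0.572% of all, with 4 at an unadjusted p under 0.05 against 12.2% of all. Right over left kidney gave 0 calls in ACTH rats (against 3.57% of all, with 9 members at an unadjusted p under 0.05 against 18.4% of all) and 0 in saline rats (against 0.0% of all, with 2 at an unadjusted p under 0.05 against 3.74% of all). In ACTH rats this count of 0 depends on the pair of animals: without rat 1 limma called Cox7b lower (-1.12, adjusted p = 0.0281) and a dimmer probe set of Ndufaf3 higher (0.63, adjusted p = 0.0470) in the right kidney of rat 5, and without rat 5 it called both Cox8b probe sets higher (2.38 and 2.42, adjusted p = 0.000889 and 0.000641) in that of rat 1. These fits have a single ACTH rat, which is assumed to vary like the rats of the other groups. The change of Ndufaf3 in rat 5 was 0.40 for its brightest set and -0.12 for its dimmest, neither called.

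In saline rats, the right over left change had a median of 0.09 for complex I (18 of 24 genes positive), -0.02 for complex III (1 of 3), -0.02 for complex IV (4 of 15) and 0.02 for complex V (5 of 9), and it was 0.13 for Sdha. Over all tested probe sets the median was 0.01, with 55.8% positive. The saline rats did not share 1 direction: complex I had 15, 23, 22 and 4 of 24 genes positive in rats 2, 4, 6 and 8, with mean changes of 0.07, 0.23, 0.29 and -0.22.

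The sizes of the effects were small for most genes. Over 56 genes the median ACTH effect was 0.03, with 34 positive, and over all 5244 probe sets the median was -0.00 with 2618 positive. For DEX the median was 0.03 with 32 positive, against -0.00 with 2595 positive over all. With quantile normalization both member medians lay just below 0, at -0.00 for ACTH and -0.03 for DEX. The 95% interval of the ACTH effect stayed within 1 log2 unit of no change for 53 of 56 genes, and that of the DEX effect for 55 of 56. Changes of that size thus lie outside the interval for nearly every gene. Changes of 0.5 log2 units lie outside it in both directions for fewer, 21 of 56 genes under ACTH and 26 of 56 under DEX. The typical interval reached 0.44 log2 units to either side. In the plot of effects by gene, Cox8b lies far from the other genes.

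**Figure D1:**
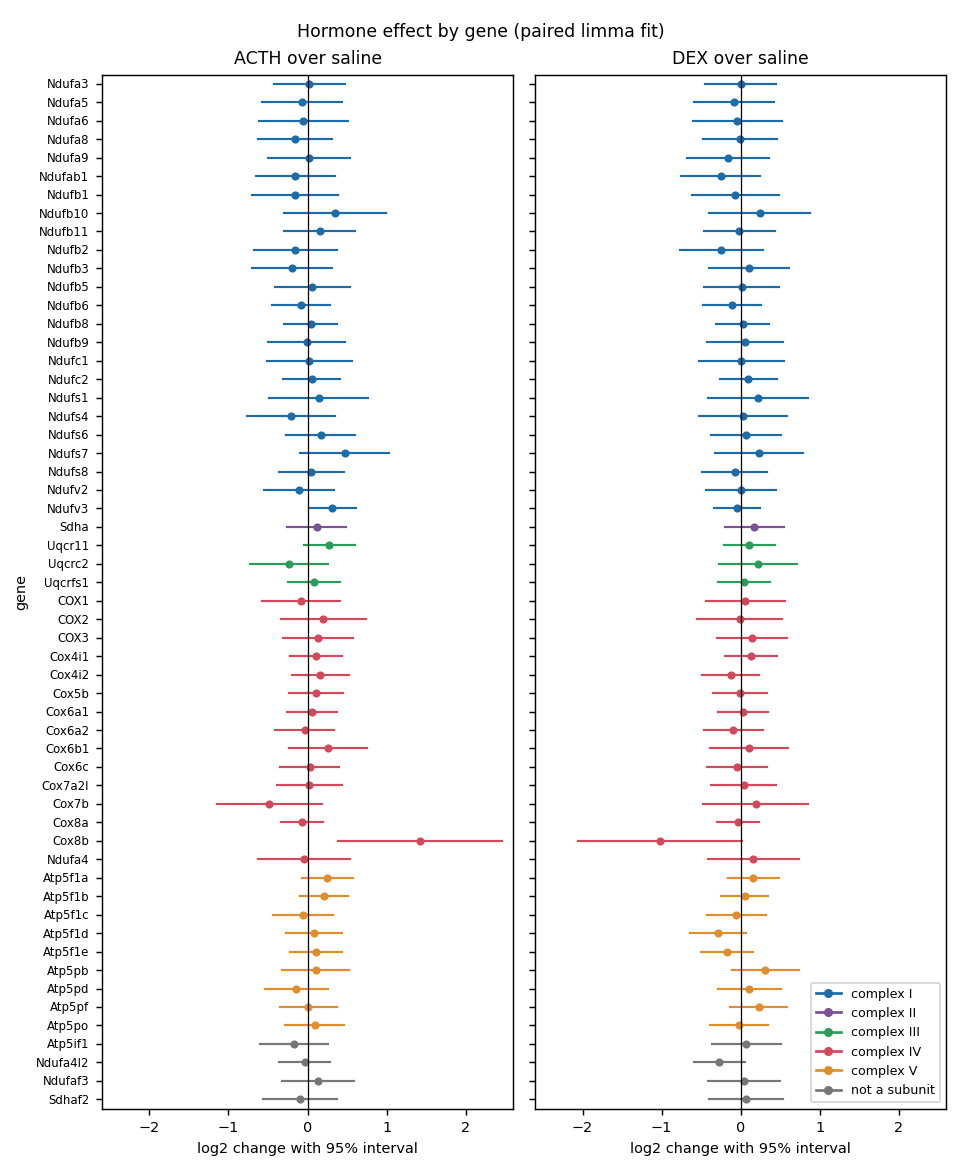
Log2 effect of ACTH (left panel) and DEX (right panel) over saline for 56 genes, coloured by complex, as points with 95% intervals from the limma fit (2 ACTH, 2 DEX and 4 saline rats). Cox8b stands at 1.42 under ACTH and -1.02 under DEX, while every other point lies between -0.48 and 0.47.

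Complex I, the NADH dehydrogenase, had 24 tested genes. The median ACTH effect was 0.02 (range -0.20 to 0.47, 13 positive) and the median DEX effect 0.00 (range -0.25 to 0.24, 12 positive). Ndufv3, a small accessory subunit beside the NADH-binding flavoprotein, gave 1969.6 and 2592 in ACTH right kidneys (rats 1 and 5), 1753 and 2228 in DEX right kidneys (rats 3 and 7), and 1808, 1913, 2081 and 2254 in saline right kidneys (rats 2, 4, 6 and 8). The left kidneys ran from 1482 through a median of 1848 to 2289. The right kidney levels overlap between treatments, but the right minus left changes of both ACTH rats lay above those of all others: 0.41 and 0.36 under ACTH, 0.06 and -0.02 under DEX, and -0.02 to 0.12 under saline. The ACTH effect on Ndufv3 was 0.31 ± 0.14 SE (limma adjusted p = 0.489) and 0.45 ± 0.16 SE (adjusted p = 0.372) for its second probe set. Neither was called. The DEX effect was -0.05 ± 0.14 SE (adjusted p = 0.999).

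Ndufs7 is the core subunit that holds the last iron-sulfur cluster before ubiquinone. It gave 1245 and 1967 in ACTH right, 1034 and 1232 in DEX right and 1061, 1028, 1496 and 850.2 in saline right kidneys, with left kidneys from 722 through a median of 1152 to 1406. Changes were 0.42 and 0.48 under ACTH, 0.51 and -0.09 under DEX, and 0.10, 0.36, 0.12 and -0.66 under saline. Both ACTH changes lay above all saline changes, the highest of which was close below, and the effect was 0.47 ± 0.26 SE (limma adjusted p = 0.608). Ndufab1, the mitochondrial acyl carrier protein, and Ndufb2, a membrane arm subunit, had the smallest p for DEX in the complex.

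Ndufab1 gave 1821 and 1899 in ACTH right, 1334 and 1763 in DEX right and 1539, 1407, 2256 and 1728 in saline right kidneys, with left kidneys from 939.7 through a median of 1601 to 2160.2. Ndufb2 gave 1115 and 1686 in ACTH right, 1144 and 1002 in DEX right and 1099.7, 1231, 1285 and 992 in saline right kidneys, with left kidneys from 807 through a median of 1009.8 to 1369.8. In both genes the DEX and saline levels overlap. The right minus left change was 0.28 in DEX rat 3 and -0.28 in DEX rat 7 for Ndufab1, against -0.13 to 0.57 in saline rats. For Ndufb2 it was 0.42 in DEX rat 3 and -0.33 in DEX rat 7, against -0.06 to 0.66 in saline rats. In each gene rat 3 lay within the saline range and rat 7 below it, and the DEX effects were -0.25 ± 0.23 SE and -0.25 ± 0.24 SE (limma adjusted p = 0.999 for both).

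Ndufb3, a further membrane arm subunit, had one of the 3 lowest ACTH minus DEX differences. It gave 916 and 718 in ACTH right, 797 and 908 in DEX right and 909, 841, 879.8 and 661 in saline right kidneys, with left kidneys from 622 through a median of 890.4 to 1095. The groups overlap, and the change was 0.09 in ACTH rat 1 and -0.59 in ACTH rat 5. The difference was -0.29 ± 0.27 SE (limma adjusted p = 0.772).

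Among the promoters of the family, 6 of complex I and 1 of complex V share a sequence near the start, shown here because it recurs in the family and not because these genes changed. RefSeq promoter windows on GRCr8, 250 bases before to 50 after the start, matched 47 of the 58 genes by gene ID. On either strand, AAGATGGCG, the core bound by the factor YY1, stood in 7 of the 47 (14.9%), against 1.73% of all 33469 windows. It contains the letters of a start codon followed by an alanine codon. In 6 of the 7 it began 4 to 23 bases after the start, and in Atp5pf 111 bases before it. The 7 are given 5′ to 3′ with 10 bases on each side and the motif in capitals.
Atp5pf: aagtgtaggaAAGATGGCGgagtcttagc
Ndufa6: cttccttagcAAGATGGCGgccgcggcca
Ndufa9: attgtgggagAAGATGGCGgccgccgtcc
Ndufb8: ggagaaggtgAAGATGGCGgcgtcccggg
Ndufs4: tgcccacaggAAGATGGCGgcggtctcaa
Ndufs6: ggtcgtcggcAAGATGGCGgcggcgctga
Ndufs7: ggccgaggccAAGATGGCGgcgctggcgg
Their windows lie on chr11:37375052-37375351 (Atp5pf, minus strand), chr7:115750268-115750567 (Ndufa6, minus), chr4:161374121-161374420 (Ndufa9, minus), chr1:253362887-253363186 (Ndufb8, minus), chr2:47794865-47795164 (Ndufs4, minus), chr1:31797150-31797449 (Ndufs6, plus) and chr7:10110449-10110748 (Ndufs7, minus). Of these genes, Ndufs7 and Ndufs6 had ACTH effects of 0.47 and 0.17, Ndufb8 0.04, Ndufa9 0.02, Atp5pf 0.01, Ndufa6 -0.05 and Ndufs4 -0.20, so genes with the motif fell on both sides of no change. The NRF1 core GCGCNTGCG stood in 8 of 47 member windows (17.0%, against 5.75% of all), and the ETS family core ACTTCCGG in 4 (8.51%, against 3.81%). The nuclear receptor site AAGGTCA of the Esrra type stood in 5 (10.6%, against 4.61%). Windows that hold several of these motifs count for each, and no motif match shows that a factor binds.

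Complex II was represented by Sdha, the flavoprotein that oxidises succinate in both the citric acid cycle and the chain. Sdha gave 1957 and 1418 in ACTH right, 1493 and 1524 in DEX right and 1526, 1354, 1339.5 and 1530.3 in saline right kidneys. Left kidneys ran from 1108 through a median of 1345 to 1473. The right kidney of ACTH rat 1 was the highest array, and the other right kidneys overlapped. Effects were 0.12 ± 0.17 SE for ACTH and 0.17 ± 0.17 SE for DEX (limma adjusted p = 0.915 and 0.999).

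Complex III, which hands electrons from ubiquinol to cytochrome c, had 3 genes. Uqcrfs1, the Rieske iron-sulfur protein, gave 2886 and 2783 in ACTH right, 2579.6 and 2658 in DEX right and 2739.7, 2688, 2841 and 2420.0 in saline right kidneys, and its effects were 0.08 ± 0.15 SE and 0.04 ± 0.15 SE. Uqcr11, a small accessory subunit, gave 2728 and 2585 in ACTH right, 2447 and 2098 in DEX right and 2253, 2576, 2069 and 2126 in saline right kidneys. Its changes of 0.19 and 0.33 in ACTH rats lay above all saline changes (-0.14 to 0.11), with an effect of 0.28 ± 0.15 SE that was not called (limma adjusted p = 0.593). Uqcrc2, a core protein of the complex, gave 642 and 388 in ACTH right, 563 and 616 in DEX right and 586, 479, 551 and 519 in saline right kidneys. Rat 5 stood alone with a change of -0.66, against 0.15 in ACTH rat 1, and the effect was -0.24 ± 0.23 SE (limma adjusted p = 0.851), or 0.17 without rat 5.

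Complex IV, cytochrome c oxidase, had 15 tested genes, with a median ACTH effect of 0.06 (range -0.48 to 1.42, 10 positive) and a median DEX effect of 0.03 (range -1.02 to 0.19, 8 positive). Cox8b, the muscle and brown fat isoform of its smallest subunit, gave the highest ACTH and the lowest DEX effect of the family. Cox8b signal was 860.1 and 174 in ACTH right kidneys (rats 1 and 5), 82.1 and 145 in DEX right kidneys (rats 3 and 7) and 95.3, 76.5, 152 and 186 in saline right kidneys (rats 2, 4, 6 and 8). In left kidneys it was lowest at 95.8, had a median of 155 and was highest at 479.9, in DEX rat 7. ACTH rat 1 alone was high among right kidneys, and ACTH rat 5 lay within the saline range. Right minus left changes were 2.38 and 0.05 under ACTH, -0.83 and -1.62 under DEX, and -0.21, -0.27, -0.64 and 0.30 under saline. Both DEX changes lay below all saline changes, and the left kidney of DEX rat 7 was the highest of the left arrays.

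The ACTH effect on Cox8b was 1.42 ± 0.48 SE, or 2.68-fold, and was not called (limma adjusted p = 0.321). Its second probe set gave 1.49 ± 0.46 SE (adjusted p = 0.244). The DEX effect was -1.02 ± 0.48 SE (limma adjusted p = 0.999) and -0.94 ± 0.46 SE for the second set. With right kidneys alone, DEX against saline gave -0.12 and, for the second set, 0.04. The difference, ACTH minus DEX, was 2.44 ± 0.55 SE with a 95% interval of 1.24 to 3.64 and a limma adjusted p of 0.0774, and 1.70 (adjusted p = 0.934) with right kidneys alone. In size it ranked 10 of 5244. These values depend on which ACTH rat enters: without rat 1 the ACTH effect was 0.26 (limma adjusted p = 0.770) and the difference 1.28 (adjusted p = 0.0891), and without rat 5 they were 2.58 and 3.61 and both called (adjusted p = 0.00182 and 0.000474). Each of these fits holds 1 ACTH rat, assumed to vary like the DEX and saline rats, and without rat 5 that is the rat with the highest Cox8b array. Rats 1 to 4 alone gave an ACTH effect of 2.62 and a DEX effect of -0.59, and rats 5 to 8 alone gave 0.22 and -1.45. The difference passed the threshold (limma adjusted p = 0.0370) when the right kidney term was allowed to differ between rats 1 to 4 and rats 5 to 8.

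Fat markers were highest on the array with the highest Cox8b signal, the right kidney of ACTH rat 1, but did not follow Cox8b on every array. Ucp1, the uncoupling protein of brown fat, gave 1119 and 106 in ACTH right, 53.0 and 98.2 in DEX right and 142, 44.6, 76.9 and 94.3 in saline right kidneys, and 501 in the left kidney of ACTH rat 1 and 788 in that of DEX rat 7. Cidea, a lipid droplet protein of brown fat, gave 775 in the right kidney of ACTH rat 1, against 132 in its left, and 84.9 in the right kidney of DEX rat 7, against 329.7 in its left. The 8 tested fat markers summed to 1726 to 12006 in ACTH right, 1055 to 1356 in DEX right, 1023 to 1654 in saline right and 985 to 3842 in left kidneys. Among left kidneys the sum was 3842 in rat 6, 3358 in rat 1 and 2540 in rat 7, where Cox8b gave 244, 152 and 479.9. The mean fat marker level on the log2 scale was 8.11, 8.25 and 8.12 in the same order. The order of these left kidneys in fat markers thus depended on the summary used. All 8 had positive ACTH effects (median 1.01) and 1 of 8 a positive DEX effect (median -1.15), with 0 called by limma. At an unadjusted p under 0.05 there were 6 of 8 for ACTH (against 9.44% of all probe sets) and 4 of 8 for DEX (against 2.94% of all). The list was drawn up with earlier results of these data known, and its markers can rise together on 1 array. In ACTH right kidneys the sum was 12006 in rat 1 and 1726 in rat 5. The counts are therefore a description and no test. In DEX rats the summed markers were 1356 and 1055 in right kidneys (rats 3 and 7), against 2369 and 2540 in their left kidneys. Those right kidney sums lay within the saline right range, and those left kidney sums lay within the range of the saline rats' left kidneys (985 to 3842). What lay behind the negative DEX effects was not tested. With the mean fat marker level of each array as a covariate, the Cox8b effects were 0.18 ± 0.48 SE for ACTH and 0.03 ± 0.45 SE for DEX. The covariate was itself highest, at 9.85, in the right kidney of ACTH rat 1, the array highest in Cox8b. That fit therefore cannot separate the fat markers from the treatment, and the part of these markers in the Cox8b values was not tested. Of the muscle markers, 3 of 11 on the array passed the filter. They summed to 237 to 252 in ACTH right, 215 to 234 in DEX right, 246 to 279 in saline right and 206 to 288 in left kidneys, and Acta1 and Myh4 stayed at or under 38.2 on every array.

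**Figure D2:**
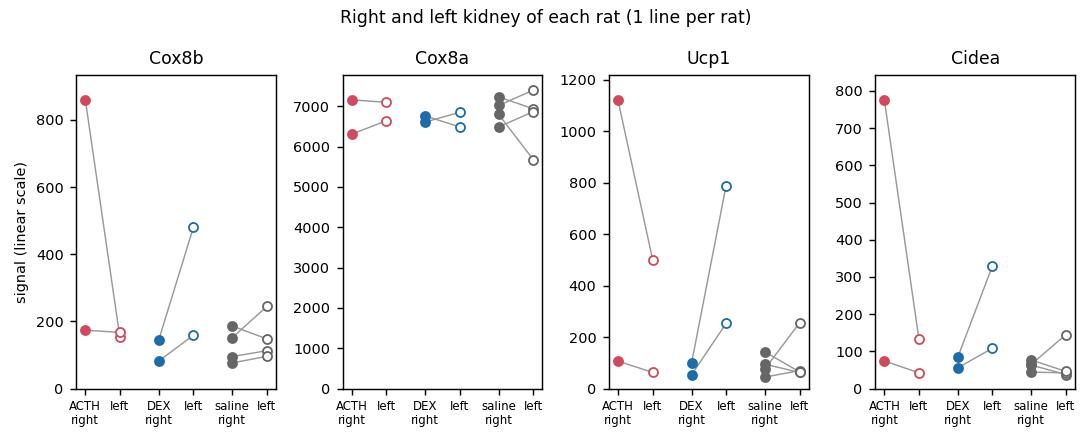
Signal (linear scale from 0) of Cox8b, Cox8a, Ucp1 and Cidea in the right kidney (filled) and left kidney (open) of each rat, joined by a line, for ACTH, DEX and saline rats. Cox8b, Ucp1 and Cidea are all high in the right kidney of ACTH rat 1 and the left kidney of DEX rat 7, while the Cox8a probe set shown, its brightest, stays between 5680.1 and 7402.

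Cox8a, the isoform of the same subunit found in nearly all tissues, gave 6309.5 and 7161 in ACTH right, 6762 and 6610.3 in DEX right and 7020.0, 7232, 6799 and 6488 in saline right kidneys. Its effects were -0.07 ± 0.12 SE and -0.04 ± 0.12 SE (limma adjusted p = 0.942 and 0.999). Left kidneys ran from 5680.1 through a median of 6859 to 7402, and all groups overlapped. Its other 3 probe sets had wider ranges that split by rat number: the next brightest ran from 4603 to 6076 in rats 5 to 8 and from 7248 to 8916 in rats 1 to 4. Their hormone effects lay between -0.07 and 0.01. The promoters of Cox8b and Cox8a are shown because they encode isoforms of 1 subunit. They come from RefSeq on GRCr8, chr1:205408224-205408523 for Cox8b and chr1:213833574-213833873 for Cox8a, both on the minus strand, with motifs found on either strand in capitals.
Cox8b: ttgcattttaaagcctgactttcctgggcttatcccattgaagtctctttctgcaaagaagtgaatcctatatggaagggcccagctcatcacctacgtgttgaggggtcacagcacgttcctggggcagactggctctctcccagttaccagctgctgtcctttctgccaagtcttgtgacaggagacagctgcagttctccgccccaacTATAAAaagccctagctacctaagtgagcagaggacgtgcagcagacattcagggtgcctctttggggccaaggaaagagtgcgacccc
Cox8a: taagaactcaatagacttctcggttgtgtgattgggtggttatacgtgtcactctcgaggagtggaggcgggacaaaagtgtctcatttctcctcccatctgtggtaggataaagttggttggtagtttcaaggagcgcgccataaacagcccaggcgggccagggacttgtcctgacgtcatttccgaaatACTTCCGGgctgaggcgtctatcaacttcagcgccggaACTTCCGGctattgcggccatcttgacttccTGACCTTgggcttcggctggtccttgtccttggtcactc
Cox8b has TATAAA 39 bases before the start and none of the other motifs searched. TATAAA stood in 2 of the 47 member windows, those of Cox8b and Ndufs6 (4.26%), against 14.2% of all windows. Cox8a has ACTTCCGG 58 and 20 bases before the start and AAGGTCA, on the opposite strand, 11 bases after it, and no TATAAA.

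Of the 8 members listed as tissue isoforms or their partners, Cox8b and Cox8a included, 6 had a positive ACTH effect (median 0.08) and 4 a positive DEX effect (median -0.00). Cox6a2, the muscle isoform, gave 145 and 179 in ACTH right, 137 and 182 in DEX right and 145, 127, 201 and 191 in saline right kidneys, with effects of -0.04 ± 0.17 SE and -0.09 ± 0.17 SE. Its partner Cox6a1 had effects of 0.06 ± 0.15 SE and 0.03 ± 0.15 SE. Cox4i2, an isoform known for induction by low oxygen, gave 378 and 421 in ACTH right, 397 and 404 in DEX right and 354, 350.1, 404 and 414 in saline right kidneys. Its effects were 0.16 ± 0.17 SE and -0.13 ± 0.17 SE, against 0.11 ± 0.15 SE and 0.13 ± 0.15 SE for Cox4i1, the common isoform. Cox6b1, at the dimer interface, had effects of 0.26 ± 0.23 SE and 0.10 ± 0.23 SE, and Cox7a2l, which takes part in joining complexes III and IV, 0.02 ± 0.19 SE and 0.04 ± 0.19 SE. None of these passed the limma threshold (adjusted p from 0.820 to 0.999).

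Cox7b, a small structural subunit, had the lowest ACTH effect of the family. It gave 1013 and 432 in ACTH right, 930.0 and 925 in DEX right and 894, 774, 797 and 657 in saline right kidneys, with left kidneys from 622 through a median of 892 to 1023. The right kidney of ACTH rat 5 was the lowest of all arrays, with a change of -1.12, against 0.11 in ACTH rat 1. The effect was -0.48 ± 0.31 SE (limma adjusted p = 0.695), and 0.13 without rat 5.

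Complex V, the ATP synthase, had 9 tested genes, with a median ACTH effect of 0.09 (7 positive, range -0.14 to 0.25) and a median DEX effect of 0.05 (5 positive, range -0.29 to 0.31). Atp5f1a, the alpha subunit of the catalytic head, gave 1786 and 1655 in ACTH right, 1523 and 1434 in DEX right and 1681, 1545, 1389.6 and 1429 in saline right kidneys. The saline changes of Atp5f1a were narrow (0.00 to 0.03), and both ACTH changes (0.15 and 0.39) and both DEX changes (0.31 and 0.05) lay above them. The effects were 0.25 ± 0.15 SE for ACTH and 0.16 ± 0.15 SE for DEX (limma adjusted p = 0.667 and 0.999), the second being -0.03 when right kidneys alone were compared. Atp5f1b, the catalytic beta subunit, gave 4207 and 3527 in ACTH right, 3651 and 3323 in DEX right and 3461, 3897, 3128 and 3764 in saline right kidneys, with effects of 0.21 ± 0.14 SE and 0.05 ± 0.14 SE.

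Atp5f1d, the delta subunit of the central stalk, gave 1707 and 2102 in ACTH right, 1648 and 1323 in DEX right and 1551, 1677, 1649.9 and 1739 in saline right kidneys. Its effects were 0.08 ± 0.16 SE for ACTH and -0.29 ± 0.16 SE for DEX, and their difference 0.36 ± 0.19 SE (limma adjusted p = 0.480). Atp5pb, a subunit of the peripheral stalk, gave 1392 and 528 in ACTH right, 1169 and 760.0 in DEX right and 1064, 1192, 602 and 570.2 in saline right kidneys. The DEX changes of 0.38 and 0.17 lay above all saline changes (-0.14 to 0.05), with an effect of 0.31 ± 0.19 SE (limma adjusted p = 0.999), and ACTH rats parted with 0.42 and -0.27.

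The genes with a family name that are no subunits did not stand apart. Atp5if1, which blocks ATP hydrolysis by complex V, had effects of -0.17 ± 0.20 SE for ACTH and 0.07 ± 0.20 SE for DEX, and Ndufaf3, a complex I assembly factor, 0.13 ± 0.21 SE and 0.04 ± 0.21 SE. Sdhaf2, which helps attach the flavin to Sdha, had effects of -0.10 ± 0.21 SE and 0.07 ± 0.21 SE. Ndufa4l2, known for induction by low oxygen, gave 138 and 166 in ACTH right, 143 and 137 in DEX right and 148, 128, 184 and 161 in saline right kidneys. Its DEX changes of -0.26 and -0.24 lay below all saline changes (-0.08 to 0.23), with an effect of -0.27 ± 0.15 SE (limma adjusted p = 0.999).

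Counted as non-overlap, 8 member probe sets (8.16%) had both ACTH changes above all 4 saline changes, against 7.82% of all, and 1 (1.02%) had both below, against 7.84% of all. By brightest probe set the genes above were Atp5f1a, Ndufs7, Ndufv3 and Uqcr11. For DEX, 2 member probe sets (2.04%) lay above, against 6.08% of all, and 4 (4.08%) below, against 6.33% of all. The shares lie near or below the background, so they are no result about the family.

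Where a gene had several tested probe sets, they agreed in sign for 18 of 28 genes under ACTH and 15 of 28 under DEX, with a median span of 0.08 and 0.09. The median size of the effects themselves was similar, 0.11 for ACTH and 0.08 for DEX. The widest span was 0.40, under ACTH, among the 4 sets of Atp5if1.

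The right minus left change of the subunits leaned to 1 side in most rats, and to opposite sides in the DEX pair and among saline rats. It leaned little in saline rat 2 (55.8% positive, against 51.2% of all probe sets) and ACTH rat 5 (59.6%, against 55.0%). Over 52 subunit genes, the mean right minus left change was 0.20 in ACTH rat 1, 0.01 in ACTH rat 5, 0.24 in DEX rat 3 and -0.14 in DEX rat 7, against 0.05, 0.11, 0.19 and -0.16 under saline (rats 2, 4, 6 and 8). Positive changes were found in 44 and 31 of 52 genes under ACTH, 48 and 10 under DEX, and 29, 37, 45 and 13 under saline. Over all tested probe sets the positive share lay between 46.6% and 57.8% in each of the 8 rats, against 19.2% to 92.3% for the subunits. ACTH rat 5 and DEX rat 7 lay within the range of the saline rats, DEX rat 3 lay above it, and the DEX rats went opposite ways. ACTH rat 1 lay above it with Cox8b and within it without Cox8b (0.16, against -0.17 to 0.20 under saline).

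Complex I had the widest range over rats among complexes I, III, IV (without Cox8b) and V. The mean change was 0.19 and 0.03 under ACTH, 0.35 and -0.17 under DEX, and 0.07, 0.23, 0.29 and -0.22 under saline. In DEX rat 3 all 24 genes were higher in the right kidney, and in DEX rat 7 only 2 of 24. Relative to the mean of all arrays, complex I stood at -0.03 in the right and -0.38 in the left kidney of rat 3, and at 0.02 in the right and 0.19 in the left kidney of rat 7, so these rats differed more in the left kidney than in the right. The median DEX effect of the 56 genes was -0.14 without rat 3 and 0.22 without rat 7. Taken separately, rats 1 to 4 gave a median of 0.19 and rats 5 to 8 a median of -0.10. Complex III and complex IV without Cox8b spanned -0.10 to 0.27 and -0.24 to 0.20, and complex V, -0.07 to 0.24. The plot of change by complex shows the points of each treatment straddling 0 in complex IV.

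**Figure D3:**
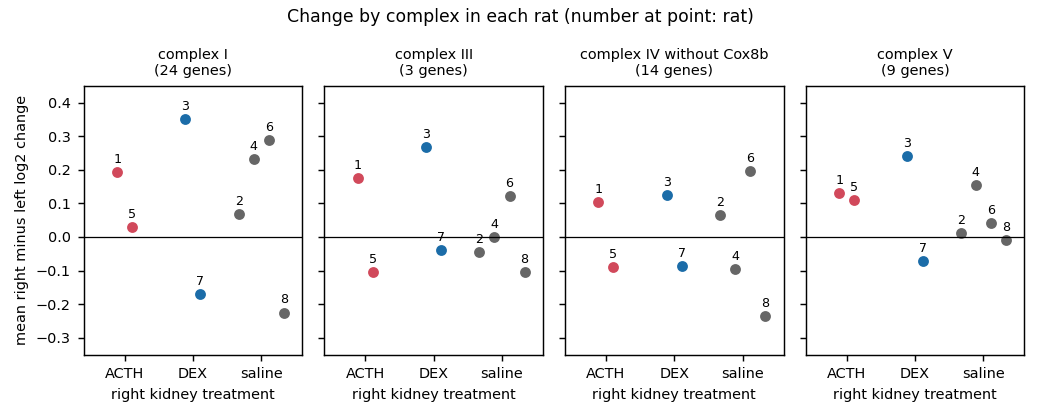
Mean right minus left log2 change over the genes of complexes I, III, IV (without Cox8b) and V in each rat, grouped by the treatment of the right kidney, with the rat number at each point. DEX rats 3 and 7 lie on opposite sides of 0 in all 4 panels, and the saline rats span -0.22 to 0.29 in complex I.

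Some levels differed between rats 5 to 8 and rats 1 to 4 whatever the treatment. COX2, a catalytic core subunit encoded by mitochondrial DNA, ran from 624 through a median of 919 to 1107 over the 8 arrays of rats 5 to 8, and from 1830.2 through 2294 to 2952 over those of rats 1 to 4. The ranges do not overlap. COX1 ran from 2479.7 to 3412 in rats 5 to 8 and from 3823 to 6829.5 in rats 1 to 4, and COX3 from 2976 to 3893 and from 3978 to 6045, again without overlap. Each set holds both hormones and saline, and the hormone effects on COX1, COX2 and COX3 were -0.08 ± 0.23, 0.20 ± 0.25 and 0.13 ± 0.20 (SE) for ACTH and 0.06 ± 0.23, -0.01 ± 0.25 and 0.14 ± 0.20 (SE) for DEX.

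Nuclear subunits went both ways, and some also had no overlap over all 16 arrays. Atp5pb, Atp5f1c and Ndufc2 reached at most 760, 1000 and 449 in rats 5 to 8, and at least 894, 1187 and 515 in rats 1 to 4. Ndufb6 and Ndufs8 were at least 1019 and 1602 in rats 5 to 8, and at most 939.5 and 1597 in rats 1 to 4. The share of all probe sets that split so over all arrays was not counted, so this split is not shown to be particular to COX1, COX2 and COX3. Over left kidneys, Atp5pb ran from 581 to 672 in rats 5 to 8 and from 894 to 1199 in rats 1 to 4, while Ndufab1 ran from 1803 to 2160.2 in rats 5 to 8 and from 939.7 to 1399 in rats 1 to 4. Among 56 genes, 13 (23.2%) had all left kidneys of rats 5 to 8 above those of rats 1 to 4, against 19.6% of all probe sets, and 6 (10.7%) had them below, against 16.2% of all. Those shares are close to the background, so they are no result about the family. The 6 were COX1, COX2, COX3, Atp5pb, Atp5f1c and Ndufc2. The heat map shows this split as blocks of colour in the rows of COX1 to COX3.

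**Figure D4:**
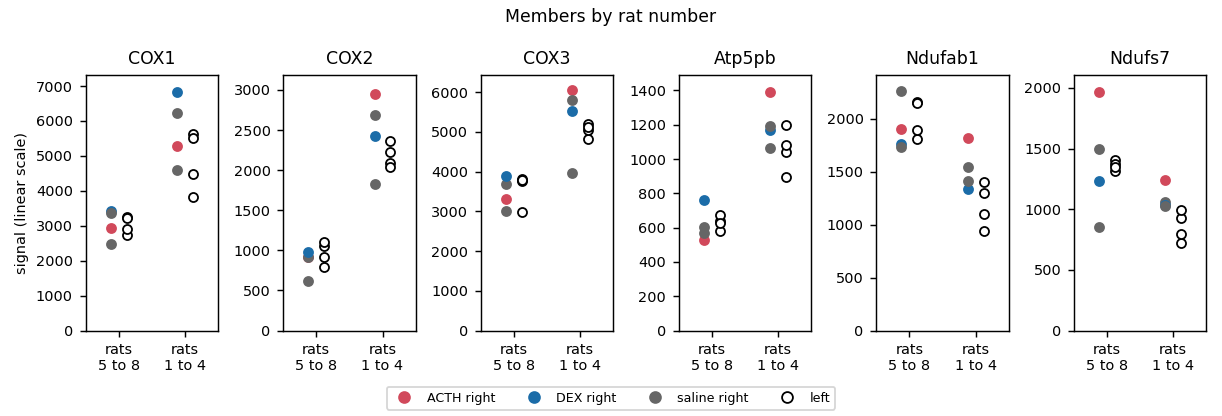
Signal (linear scale from 0) of COX1, COX2, COX3, Atp5pb, Ndufab1 and Ndufs7 in rats 5 to 8 (left) and rats 1 to 4 (right), with filled points for right kidneys by treatment and open points for left kidneys. COX1 to COX3 and Atp5pb are lower in rats 5 to 8 on every array, and left kidneys of Ndufab1 and Ndufs7 are higher there.

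**Figure D5:**
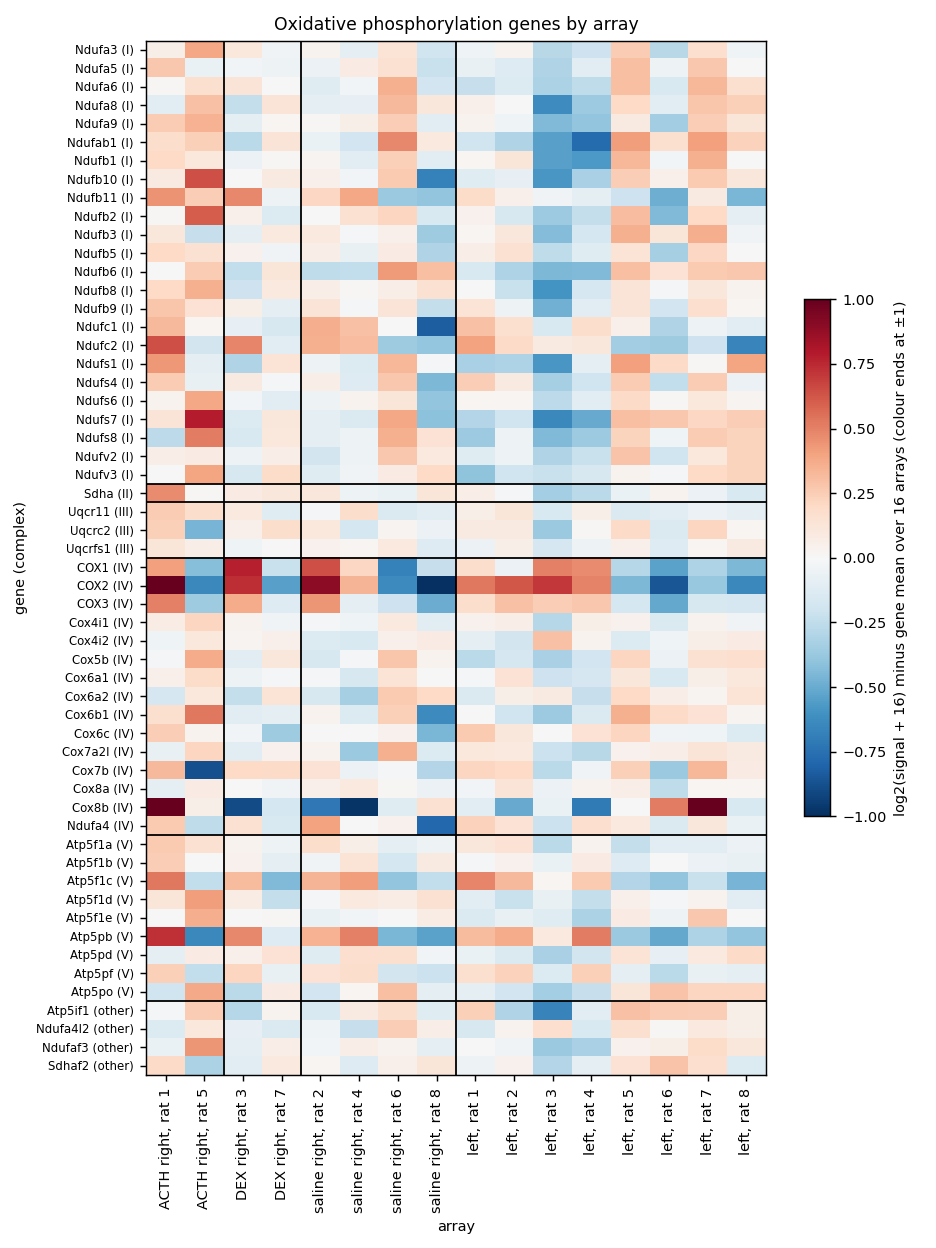
Log2 deviation of each of 56 genes from its own mean over 16 arrays (rows, by complex), with right kidneys of ACTH, DEX and saline rats and then left kidneys as columns, coloured from -1 (blue) to 1 (red). Cox8b reaches the red end in ACTH rat 1 and in the left kidney of rat 7, and values beyond 1 share the end colour.

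Genes that feed or use the chain were counted beside it, from lists drawn up with earlier results in view, and limma called none for either hormone, with 6 of 50 at an unadjusted p under 0.05 for ACTH (against 9.44% of all probe sets) and 3 of 50 for DEX (against 2.94% of all). In the list of the citric acid cycle and pyruvate dehydrogenase, 9 of 11 tested genes had a positive ACTH effect, with a median of 0.27, against -0.00 over all probe sets, and 5 of 11 had an unadjusted p under 0.05, against 9.44% of all. Idh2, mitochondrial isocitrate dehydrogenase, gave 3245 and 3792 in ACTH right, 2475 and 2945 in DEX right and 2411, 2786, 2973 and 2677 in saline right kidneys, with an ACTH effect of 0.49 ± 0.13 SE (limma adjusted p = 0.164). Both ACTH kidneys exceeded all other right kidneys. Cs, citrate synthase, had an ACTH effect of 0.52 ± 0.18 SE (limma adjusted p = 0.321). The DEX median was 0.01, with 6 of 11 positive. Pdhb, a pyruvate dehydrogenase subunit, had effects of 0.54 ± 0.21 SE for ACTH and 0.35 ± 0.21 SE for DEX, and Pdp2, a phosphatase that activates pyruvate dehydrogenase, stood at -0.53 ± 0.22 SE under both hormones.

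Among 11 adenine nucleotide, phosphate and uncoupling carriers the medians were 0.04 for ACTH and 0.06 for DEX, and the mitochondrial citrate carrier Slc25a1 came nearest to a call under ACTH (0.80 ± 0.17 SE, limma adjusted p = 0.0666). Ucp1 had effects of 1.03 ± 0.52 SE and -2.24 ± 0.52 SE (limma adjusted p = 0.558 and 0.999), though its signal in both DEX right kidneys lay within the saline right range. Ucp2, a wider expressed relative, had an effect of -0.38 ± 0.20 SE under DEX. Of 7 electron carriers outside the family names, 5 were positive under each hormone (medians 0.10 and 0.03), among them Cyc1, cytochrome c1, at 0.21 ± 0.16 SE under ACTH. Of 4 tested biogenesis regulators, 2 were positive under each hormone (medians 0.04 and -0.09), with Esrra, a nuclear receptor that drives these genes, at 0.13 ± 0.16 SE and 0.00 ± 0.16 SE. Ppargc1a, Tfam, Nrf1 and Cycs are not named in the array annotation used. Of 6 assembly, import and chaperone genes, 4 were positive under ACTH and 6 under DEX (medians 0.04 and 0.15). Tomm20, a receptor for protein import, stood at -0.19 ± 0.18 SE and 0.23 ± 0.18 SE. Of 11 vacuolar and sodium pump ATPase subunits, 5 and 8 were positive (medians -0.01 and 0.11), with Atp6v0c, of the vacuolar proton channel, at 0.30 ± 0.15 SE and 0.34 ± 0.15 SE.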

How the data were processed

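RNA from both kidneys of 8 rats was measured on 16 arrays. Per the labels' protocols, total RNA was extracted with Tri-Reagent, cleaned on RNeasy columns and made into biotinylated cRNA. The authors deposited 1 signal intensity per probe set and array on a linear scale, with software and normalization not given in the sources used here. Array medians lay between 76.0 and 82.1, a log2 span of 0.10 that is under the limit of 0.5 set for rescaling, so values were used as deposited. Arrays have no depth; precision is limited by how many there are.

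Gene symbols came from the platform annotation (1 symbol for 7006 probe sets, several for 308, none for 1426). The 59 control probe sets were removed. Values became log2(value + 16), the lowest 40% by mean were left out, and 5244 probe sets were fitted with limma (version 3.58.1, R 4.3.3): a term per rat, a right kidney term and separate right kidney terms for ACTH and DEX, with an intensity trend in the variance, 5 residual degrees of freedom and a prior of 7.34. Tests were 2-sided and p-values were adjusted over all 5244. The script was tested on simulated data.

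Kidneys of a rat are paired by animal. Deviations of the paired kidneys from their group means correlated at 0.55 to 0.71 in all 8 rats, though the right kidneys of both DEX rats correlated more highly with another rat's left kidney (0.713 against 0.672 for rat 3, 0.671 against 0.660 for rat 7). Each group holds rats of both sets, 1 to 4 and 5 to 8, so these deviations also carry the difference between the sets. The correlations therefore cannot show by themselves that 2 kidneys come from 1 animal. Members, gene lists, the rats 1 to 4 and 5 to 8 split and the alternatives were chosen with earlier results of these data known. Named genes are the 2 with the smallest p per complex or list and hormone, any member called, the isoforms, complexes with 5 or fewer genes, and the 3 highest and 3 lowest ACTH minus DEX differences. The complex IV values without Cox8b, the members compared by rat number and the genes carrying a promoter motif were added after values were seen.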

Additional observations from a re-analysis of the deposited data

Results flagged for a closer look

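On the linear signal scale, 1 sample stood far from the others of its group. That scale stretches high values relative to the log2 scale used for changes. Among 57 groups of 4 or 8 values (named genes in saline right and in left kidneys, and complex means of saline rats) tested for an outlying sample by Dixon's criterion, 1 was found, and chance alone flags about 1 in 20 groups. The Cox8b signal of the left kidney of rat 7, a DEX rat, was 479.9, where the next left kidney, that of rat 6, gave 244. Its right kidney gave 145. In the same left kidney Ucp1 was 788 and Cidea 329.7, the highest of the left kidneys for both, while the sum of the 8 tested fat markers was 2540 there, below the 3842 of the left kidney of rat 6 and the 3358 of that of rat 1. On the log2 scale the mean fat marker level was 8.12 there, 8.11 in the left kidney of rat 6 and 8.25 in that of rat 1.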

How the results depend on the processing

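The count of 0 called members held for ACTH, DEX, ACTH minus DEX and saline right over left, except as follows. Leaving out 1 rat at a time gave 0 to 2 called members for ACTH and 0 to 2 for ACTH minus DEX, the 2 being both Cox8b probe sets without rat 5. With the right kidney term separate for rats 1 to 4 and rats 5 to 8, ACTH minus DEX called 2, again Cox8b. Without rat 5 the Cox8b ACTH effect was 2.58 (called). The median DEX effect ran from -0.14 (without rat 3) to 0.22 (without rat 7) and was 0.19 within rats 1 to 4, and the median ACTH effect from -0.02 to 0.09.

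Without the replicate block (no term per rat) 0 members were called. The medians of 0.03 for ACTH and 0.03 for DEX could not change in that fit. Every rat has both kidneys on arrays, so leaving out the rat term alters only the SE. For the ACTH effect on Cox8b the SE went from 0.48 to 0.79.

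Over all probe sets the ACTH effect called 26, against 0 without the block, 12 with quantile normalization, 44 with robust variance, 6 with the fat marker covariate and 9 (without rat 4) to 114 (without rat 5) when 1 rat was left out. ACTH minus DEX called 30, against 0 without the block, 74 with the separate right kidney terms and 2 (without rat 7) to 100 (without rat 1) with 1 rat left out. ACTH right over left called 187, against 4 without the block and 119 (without rat 3) to 272 (without rat 1) with 1 rat left out. Fits without 1 hormone rat hold a lone rat of that hormone, assumed to vary like the other groups.

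A sign change of an uncalled value was counted where the value exceeded its SE. Leaving out 1 rat, the DEX effect ran from -0.53 to 0.026 for Ndufab1 and from -0.62 to 0.13 for Ndufb2 (highest without rat 7), and the ACTH effect from -0.64 to 0.17 for Uqcrc2 and from -1.09 to 0.13 for Cox7b (highest without rat 5). Within rats 1 to 4 the value was 0.14 for Ndufb2 under DEX, 0.23 for Uqcrc2 under ACTH and 0.14 for Cox7b under ACTH. Cox8b under DEX was 0.032 with the fat marker covariate and -0.12 in right kidneys only. Atp5f1a under DEX was -0.028 in right kidneys only. The cause of these changes was not tested. Signal over background could not be judged, as no detection call was used.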

Other observations

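A further 6 probe sets carry several gene symbols, at least 1 of them with a family name, so none can be given to a single gene, and they were left out of the counts. Their ACTH effects ran from -0.07 to 0.17 and their DEX effects from -0.09 to 0.23. Limma called none of the 6 for ACTH or DEX (adjusted p at or above 0.888), with 0 at an unadjusted p under 0.05.

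In the marker lists of other kidney and blood cells (thick limb, distal tubule, collecting duct, erythrocyte, leukocyte, endothelium and adrenal cortex) limma called no gene for either hormone, with 6 of 27 at an unadjusted p under 0.05 for ACTH (22.2%, against 9.44% of all probe sets) and 2 of 27 for DEX (7.41%, against 2.94% of all). The medians for ACTH were -0.21, 0.41, 0.22, 0.15, -0.35, -0.12 and 0.04 in that order, and for DEX 0.27, -0.01, 0.02, -0.51, -0.16, -0.16 and 0.06. These lists too were drawn up with earlier results known, so the counts are a description and no test.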
